A study of Rattus norvegicus with 24 samples.

Results

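The kidney arrays at 4 and 10 months (early) were set against those at 18 and 24 months (late), 2 arrays against 2, chosen by their tissue and age labels as 4 of the 24 arrays of the series. All rats were male Sprague Dawley rats with no treatment, and the other 20 arrays are hypothalamus, pituitary, spleen lymphocyte, liver and bone at the same 4 ages. Each array held RNA of 10 rats mixed in equal amounts, and the rats of an age supplied every tissue of that age. There is thus 1 pool per age, the spread within the early or the late group also holds the difference between its 2 ages, and no value measures the spread between rats. The question was which transcripts of the ageing kidney lay apart in the late arrays, and how they ran over the 4 ages.

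The kidney filters blood in the glomeruli and takes back water, salts, glucose and amino acids along the proximal tubule, loop of Henle, distal tubule and collecting duct. Ageing male rats of common laboratory stocks are known for a chronic progressive nephropathy, in which tubules thicken or dilate, immune cells gather and the matrix between tubules grows. Damaged tubule cells are known to switch on osteopontin (Spp1), kidney injury molecule 1 (Havcr1), vimentin (Vim) and clusterin (Clu). In whole tissue, fewer cells of a type and less RNA per cell cannot be told apart.

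The 18-month array stood apart from the others. Its correlation across genes with the other 3 kidney arrays was 0.936 to 0.955, against 0.972 to 0.976 among those 3. Its median signal was 214, against 239 to 243, and 76.1% of the genes reached a signal of 100 on it, against 79.3 to 80.4%. The 3' to 5' ratio of the actin control probe sets was highest there, at 1.93 on the log2 scale, against 1.40 to 1.76. That of Gapdh was lowest there, at 0.65 against 0.66 to 0.80, and that of hexokinase, 4.32, lay between 1.31 at 4 months and 5.13 at 24 months. These controls did not run one way at 18 months, and the part of RNA quality in the results was not tested. Compared with the 4-month array, 216 genes were at least 2-fold higher and 400 at least 2-fold lower at 18 months, whereas at 24 months these counts were 51 and 60. Values of the 24-month array alone are therefore given beside the means of both late arrays.

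Of 15 kidney identity genes listed, 13 were on the array and 12 were tested. Of the 12 tested, 10 had early and late arrays that overlapped. Over all genes tested, the early and late arrays of 40.0% did not overlap. Umod, the uromodulin of the thick ascending limb, had signals of 15249, 14991, 15857 and 15685 at 4, 10, 18 and 24 months. Slc34a1, the phosphate carrier of the proximal tubule, had 16430, 14309, 13383 and 14314, and Lrp2, the megalin receptor of the same cells, 9034, 8686, 9928 and 8902. Aqp2, the water channel of the collecting duct, lay between 2132 and 2623, and Egf, made in the distal tubule, between 4504 and 5482. In these probe sets the levels of the 5 genes were thus close on all 4 arrays. A second probe set of Slc34a1 was lowest at 18 months, at 3373, 2444, 1789 and 2836, with overlapping groups. Other identity genes departed at 18 months. Slc22a6, the organic anion carrier OAT1 of the proximal tubule, had 4341, 3669, 1845 and 3675, and Pax8, a transcription factor of the renal epithelium, 389, 411, 175 and 325. Slc12a1, the salt carrier of the thick ascending limb, was highest then, at 1910, 1875, 3189 and 1807. Klotho (Kl), best known from the distal tubule, stayed under 100 on every array (31.6, 26.6, 45.9 and 97.4) and was not tested.

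Markers of hepatocytes, adipocytes, neurons and skeletal muscle were lower late more often than higher. Smooth muscle markers had 2 of 7 tested higher and 1 lower, and urothelium markers 1 of 2 higher and 0 lower. Over all genes tested, 22.5% were lower and 17.5% higher in both late arrays, and the marker lists are short. Of the hepatocyte markers tested, 5 of 11 were lower and 1 higher in both late arrays, with a median of -0.25 (log2) and -0.05 at 24 months alone. The summed signal of the 14 on the array was 5171, 4498, 2628 and 4044, to which Cyp2c11 gave 3320, 1513, 1034 and 1184. Adipocyte markers had 3 of 8 tested lower and 0 higher, with summed signals of 5239, 5204, 4407 and 4681 over 10 genes. Their median was -0.38, but 0.01 without the 4-month array, and the defining marker Lep was at 20.4 or lower. Neuron markers had 3 of 6 lower and 0 higher, with sums of 2935, 3222, 2769 and 3032.

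Skeletal muscle markers had 2 of 3 tested lower and 0 higher, against 22.5% and 17.5% of all genes. Their sums over 10 genes were 6674, 6927, 4912 and 6292, of which the myosin heavy chain Myh1 gave 5998, 6252, 4592 and 5692. The defining muscle genes Acta1, Mb and Myh4 stayed under 100 on every array. Summed erythroid markers, led by Hbb, were 10960, 7494, 7429 and 11240, with 0 of 3 separated, against 40.0% of all genes. Neutrophil markers were under 100 on all arrays for 5 of 6 genes, and 8 of 12 adrenal markers likewise. The part of these cells in the results was not tested.

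**Figure D1:**
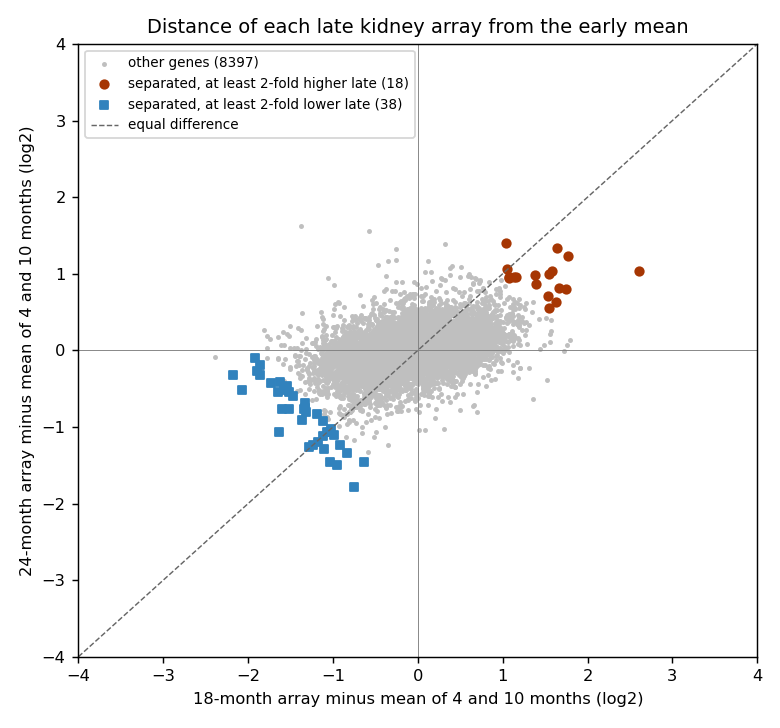
Each point is 1 of 8453 genes. The x axis gives the 18-month array minus the mean of the early arrays and the y axis the same for the 24-month array, both in log2 of signals floored at 100. The 18 genes separated and at least 2-fold higher late (circles) and the 38 lower ones (squares) lie mostly on the 18-month side of the dashed line of equal difference, and the cloud is wider along the x axis (SD 0.51) than along the y axis (SD 0.28).

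Signals under 100 were set to 100, and 8453 genes that reached 100 on at least 2 kidney arrays were compared on the log2 scale. Limma called 0 genes at an adjusted p of 0.05, with 572 at an unadjusted p under 0.05 (6.77% of those tested, 2.54% higher and 4.22% lower late) and a smallest adjusted p of 0.71. No difference between late and early kidney in the text below therefore passed the test, and an exact permutation test of 2 arrays against 2 cannot give a two-sided p below 0.333. The genes are described by separation, meaning that both late arrays lay on the same side of both early ones. By this measure 1480 genes were higher late (17.5%) and 1900 lower (22.5%). With a mean difference of at least 2-fold added, 18 genes were higher (0.213%) and 38 lower (0.45%), together 0.662%. At 1.5-fold, 230 were higher (2.72%) and 384 lower (4.54%). The median difference over all genes was -0.04 (log2). In 2545 of the 3380 separated genes the 18-month array lay farther from the early mean than the 24-month array. Of the 56 genes beyond 2-fold, 23 were also at least 2-fold from the early mean at 24 months alone, 7 of them higher and 16 lower. These counts moved with single arrays. They were 18 higher and 27 lower without the 18-month array, 132 and 293 without the 24-month array, 35 and 53 without the 4-month array, and 60 and 74 without the 10-month array. Limma then called genes only in the fits without an early array. Cd36, Gpnmb, Thrsp and Usp2 came from the fit without the 10-month array, where the 4-month array alone stood for early. Fam111a came from both fits. With each array centred on its median the counts were 22 higher and 25 lower, and with quantile normalization 21 and 23, a more even split.

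Among the 15 genes higher late with the widest gap between the nearest late and early array, Cbx7, a Polycomb subunit that represses the Cdkn2a locus, had signals of 184, 183, 380 and 382 at the 4 ages. Its 2 early and 2 late values were almost equal within each group, and the late mean was 2.07-fold the early one (log2 difference 1.05, SE 0.21). Cd36, the receptor for long-chain fatty acids and oxidised lipoprotein, had 184, 284, 711 and 575. The late mean was 2.80-fold the early one, and 24 months alone lay 1.33 above the early mean on the log2 scale. Ubd, a ubiquitin-like modifier induced by interferon gamma and tumour necrosis factor, stood at 565, 653, 1334 and 1177. Pigr, the receptor that carries immunoglobulin A through epithelia, stood at 1017, 1939, 2961 and 2730. Both were about as high at 24 as at 18 months.

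Other genes of this group were highest at 18 months. Gosr1, a SNARE protein of the Golgi, had 108, 99.8, 304 and 208. Asah1, the acid ceramidase of lysosomes, had 363, 416, 1136 and 573, and Gk, glycerol kinase, 388, 541, 1541 and 801. In both, the 24-month value was nearer to the early values than to that of 18 months. The second probe set of Asah1 had 517, 446, 942 and 506, with overlapping groups. Anp32e, a chaperone that removes the histone variant H2A.Z, had 359, 256, 791 and 603, but its second probe set was lower late by 0.26 (log2). Fam111a had the widest difference, 1.82 (log2, SE 0.46), from signals of 126, 63.4, 686 and 231, of which the 10-month value was raised to the floor. Of the 18 genes, 13 had a signal of at least 100 on all 4 arrays.

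The genes lower late were more often near the floor, with 18 of 38 at 100 or more on all 4 arrays. Srebf2, the transcription factor that switches on cholesterol synthesis, had the highest signals of the 15 with the widest gaps, at 1076, 1194, 453 and 651. Its early arrays differed little, and the late mean was 2.09-fold lower (log2 difference -1.06, SE 0.25), with -0.80 at 24 months alone. Ftcd, an enzyme of histidine breakdown, had 355, 271, 79.2 and 149. Kcnh2, a voltage-gated potassium channel, went from 293 and 203 to 114 and 92.3, so that 24 months held the lowest value. Syt13, a synaptotagmin, had 269 and 206 in the early arrays and was under the floor in both late ones (27.5 and 69.9). Pygm, the muscle form of glycogen phosphorylase, likewise went from 186 and 254 to 24.2 and 98.3, and Myl3, a myosin light chain of heart and slow muscle, from 212 and 244 to 24.9 and 128. Of the skeletal muscle markers given above, 2 of 3 tested were also lower late, while Acta1, Mb and Myh4 stayed under 100. The part of muscle in these values was not tested. For such genes the floor sets the size of the difference, which is a lower bound. Fam171a1 was lower in its main probe set (587, 506, 288 and 232), while its second probe set was higher late by 0.19 (log2).

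**Figure D2:**
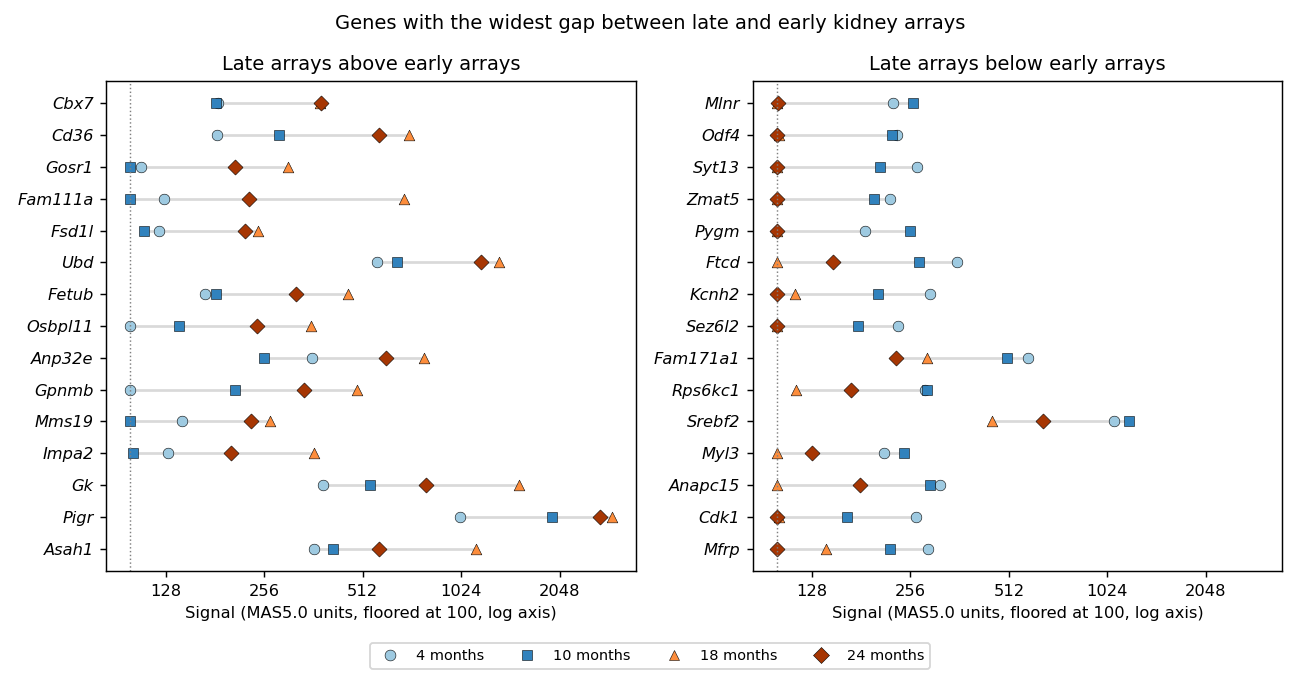
Signals of the 15 genes with the widest gap in each direction, on a log axis with values under 100 drawn at 100 (dotted line); each marker is 1 array, shaped and coloured by age. Both late markers lie on the same side of both early ones in every row, since this chose the genes, and the 18-month triangle is the outermost late marker in most rows on the left.

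Injury and repair genes of the tubule were among the lists with the most members higher late. Of 38 tested, 15 were higher in both late arrays (39.5%, against 17.5% of all genes) and 8 lower (21.1%, against 22.5%). Their median difference was 0.17 (log2), with 0.13 at 24 months alone and 0.09 without the 4-month array. Spp1, osteopontin, had 2794, 4561, 10312 and 5836, a late mean 2.17-fold the early one (log2 difference 1.12, SE 0.35) with 0.71 at 24 months alone. Vim, the intermediate filament of mesenchymal and regenerating tubule cells, had 653, 666, 1439 and 977. Gpnmb, a membrane glycoprotein of macrophages and injured epithelium, had 46.3, 209, 492 and 339. In all 3, both late values exceeded both early ones and 18 months was highest.

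Timp1, an inhibitor of matrix metalloproteinases, had 191, 225, 390 and 313, and S100a4, a calcium-binding protein of fibroblasts and immune cells, 441, 371, 698 and 633. Clu and Lcn2 were higher at each age than at the one before. Clu, a secreted chaperone, went through 1200, 1407, 1650 and 2048, and Lcn2, a siderophore-binding protein of injured tubules, through 179, 202, 242 and 255. Havcr1 did not separate the groups. Its signals of 245, 320, 781 and 295 put 18 months far above every other age, and without that array the difference was 0.08 (log2). In the opposite direction, Cryab, a small heat shock protein, had 7573, 7759, 3692 and 5477, and Tff3, a trefoil peptide, 14730, 18346, 9039 and 11271.

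The proliferation list had 21 members tested, of which 8 were lower and 1 higher in both late arrays, against 22.5% and 17.5% of all genes. Its median difference was -0.27 (log2), and -0.14 at 24 months alone. Cdk1, the kinase that drives cells into mitosis, had 265, 164, 101 and 84.3. Its early arrays stood well apart, both late ones lay at the floor, and 24 months was as low as 18 (log2 difference -1.05, SE 0.28). Cdc20, an activator of the anaphase-promoting complex, had 244, 144, 125 and 105, and its second probe set was lower late by a similar 0.73. The cyclins that partner Cdk1 ran the same way, Ccnb1 with 247, 213, 164 and 141 and Ccnb2 with 175, 147, 65.3 and 102. Tk1, thymidine kinase, had 471, 426, 231 and 342. Rrm1, the large subunit of ribonucleotide reductase, was the member higher late, at 223, 261, 399 and 444. Pcna, a replication clamp, overlapped between the groups at 1406, 1390, 1713 and 1325, and Mki67 was not tested since it passed 100 only at 18 months.

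The sequences before the start of Cdk1, Cdc20, Ccnb1 and Ccnb2 are shown because these mitotic genes were lower together. Promoters of mitotic genes are known to carry CCAAT boxes and often a cell cycle element such as TTTGAA. These 4 were picked after their values were seen. Each line gives the 250 bases before the annotated start in RefSeq's GRCr8 assembly, 5' to 3' on the gene's strand, with CCAAT and TTTGAA in capitals. Where CCAAT lies on the opposite strand it reads ATTGG in the line.
Cdk1 (chr20:19265043-19265292, plus strand): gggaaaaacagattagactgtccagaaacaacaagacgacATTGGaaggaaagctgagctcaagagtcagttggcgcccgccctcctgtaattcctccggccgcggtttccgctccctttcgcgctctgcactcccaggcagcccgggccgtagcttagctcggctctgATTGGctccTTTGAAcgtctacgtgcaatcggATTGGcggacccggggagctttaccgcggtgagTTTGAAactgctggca
Cdc20 (chr5:137255800-137256049, minus strand): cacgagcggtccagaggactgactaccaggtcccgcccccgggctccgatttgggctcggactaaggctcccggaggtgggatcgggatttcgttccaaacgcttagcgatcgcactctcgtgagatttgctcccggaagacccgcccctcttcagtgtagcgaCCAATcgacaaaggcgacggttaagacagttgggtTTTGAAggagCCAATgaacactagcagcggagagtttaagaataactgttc
Ccnb1 (chr2:33655226-33655475, minus strand): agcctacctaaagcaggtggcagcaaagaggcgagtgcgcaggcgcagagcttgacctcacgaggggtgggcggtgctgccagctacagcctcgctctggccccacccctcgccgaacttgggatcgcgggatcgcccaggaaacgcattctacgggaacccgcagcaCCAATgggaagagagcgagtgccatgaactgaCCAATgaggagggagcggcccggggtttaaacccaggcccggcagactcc
Ccnb2 (chr8:79981659-79981908, minus strand): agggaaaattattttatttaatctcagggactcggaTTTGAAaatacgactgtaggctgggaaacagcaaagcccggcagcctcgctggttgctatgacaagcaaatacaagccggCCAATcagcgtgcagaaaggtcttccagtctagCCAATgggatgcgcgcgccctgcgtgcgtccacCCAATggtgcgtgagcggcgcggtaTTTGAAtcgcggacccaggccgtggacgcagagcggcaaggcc

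The windows of Cdk1 and Ccnb2 each held CCAAT 3 times and TTTGAA 2 times. That of Cdc20 held CCAAT 2 times and TTTGAA once, and that of Ccnb1 CCAAT 2 times with no TTTGAA. The variant TTCGAA was in none of them. Other forms of the cell cycle element were not searched, so the Ccnb1 window cannot be said to lack the element. All 3 motifs were searched on both strands, and no match overlapped another. Of 33469 promoter windows of this length, 34.0% held CCAAT, 9.42% held it at least 2 times, 16.2% held TTTGAA and 5.87% held both. These matches describe the letters only, and no binding was measured.

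Genes that halt the cell cycle did not run one way. Of 27 inhibitor and senescence genes tested, 8 were higher (29.6%, against 17.5% of all genes) and 4 lower (14.8%, against 22.5%) in both late arrays. Their median was 0.21 (log2) for the late mean, -0.01 for 18 months alone, 0.12 for 24 months alone and 0.04 without the 4-month array. Cdkn1a, the p21 inhibitor induced by p53, went through 195, 433, 484 and 550, most of the way between 4 and 10 months, and its late mean lay 0.83 above the early one (log2, SE 0.37). Cdkn1b, p27, had 1106, 956, 2222 and 1441, Cdkn1c, p57, 537, 925, 1197 and 1096, and Rb1, the retinoblastoma protein, 240, 250.2, 507 and 338. The p27 and Rb1 values peaked at 18 months, whereas those of p57 were close at 10, 18 and 24 months. Cdkn2a, the p16 and p19Arf locus, stayed at 33.3 or lower on all arrays and was not tested. Igfbp4, a carrier of insulin-like growth factors, was lower late at 904, 839, 470 and 634.

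Of 24 sterol and fatty acid synthesis genes tested, 9 were lower (37.5%, against 22.5% of all genes) and 4 higher (16.7%, against 17.5%) in both late arrays. Their median was -0.19 (log2), with -0.21 at 24 months alone and -0.13 without the 4-month array. Beside Srebf2, its relative Srebf1, which governs fatty acid synthesis, had 1050.2, 1185, 374 and 847. The separation held, but 24 months alone was only 0.40 below the early mean. Idi1, an isomerase of the sterol pathway, had 545, 421, 284 and 356. Thrsp, a regulator of lipogenesis, had 609, 213, 175 and 131, with a wider step between 4 and 10 months than between early and late means (log2 difference -1.25, SE 0.46). Insig2, which holds sterol-regulated factors in the endoplasmic reticulum, was higher late at 275, 286, 477 and 407, and so was the sterol dehydrogenase Nsdhl at 166, 128, 240 and 214.

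**Figure D3:**
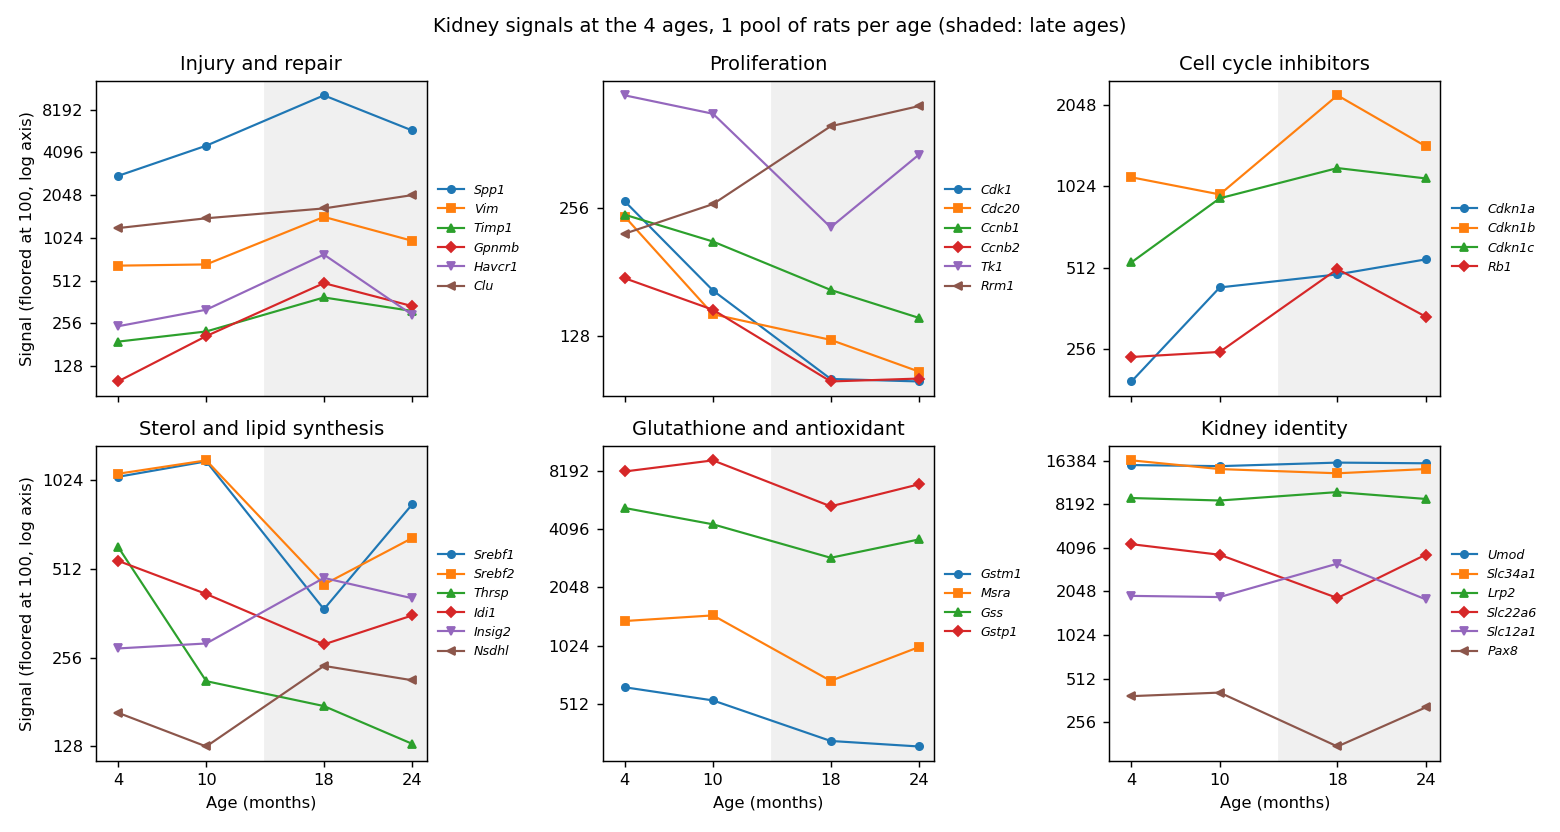
Signals of the main probe set of single genes (log axis, floored at 100) against age in months, 1 array per age, in 6 groups. The late ages are shaded. Spp1, Vim and Timp1 peak at 18 months, Cdk1, Cdc20 and Ccnb1 are lower at each age than before, Srebf1 and Srebf2 are lowest at 18 months, and of the kidney identity genes Umod, Slc34a1 and Lrp2 run nearly flat while Slc22a6 and Pax8 dip and Slc12a1 peaks at 18 months.

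Detoxifying and antioxidant genes were lower late more often than higher, in 17 (30.9%, against 22.5% of all genes) against 6 (10.9%, against 17.5%) of 55 tested, with a median of -0.14 (log2). Without the 18-month array the median was -0.06, with 25 members below both early arrays and 11 above, against 32.8% and 31.4% of all genes. Gstm1, a glutathione transferase, had 624, 534, 329 and 308, as low at 24 as at 18 months (log2 difference -0.86, SE 0.22). Msra, which repairs oxidised methionine, had 1373, 1469, 674 and 1007, Gss, glutathione synthetase, 5276, 4343, 2917 and 3628, and Gstp1 8148, 9301, 5381 and 6996. These 3 had their lowest value at 18 months.

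Subunits of oxidative phosphorylation differed by little. Of 67 tested, 24 were lower (35.8%, against 22.5% of all genes) and 6 higher (8.96%, against 17.5%) in both late arrays. Their median was -0.09 (log2), against -0.04 for all genes, and -0.14 without the 10-month array. At 24 months alone it was -0.04, against -0.003 for all genes, with 36 below both early arrays and 10 above, against 32.8% and 31.4% of all genes. Cox5a, a subunit of cytochrome oxidase, was the widest at 232, 333, 106 and 194. Atp5me of the ATP synthase had 3351, 3634, 1943 and 2903. Its second probe set was higher late by 0.37, but lay near the floor at 134, 67.8, 137 and 165. Ribosomal protein genes had 12 of 40 higher, against 17.5% of all genes, and 3 lower, against 22.5%, with a median of 0.04, which was 0.001 without the 4-month array. At 24 months alone it was 0.08, where 19 lay above both early arrays and 3 below, against 31.4% and 32.8% of all genes. Rps15a, at 4419, 4243, 8397 and 5501, was the widest of those higher.

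Carriers of solutes and drugs were lower in both late arrays for 19 of 47 tested (40.4%, against 22.5% of all genes) and higher for 9 (19.1%, against 17.5%). Their median was -0.15 (log2), with -0.12 without the 18-month array and -0.08 without the 4-month array. Slc38a3, the glutamine carrier used in renal ammonia production, had 915, 718, 283 and 558. Slc6a13, which takes up taurine and GABA, had 446, 529, 286 and 324. Among those higher, Slc16a1, the lactate carrier MCT1, had 674, 1003, 1627 and 1184, and Slc22a4, the carnitine and ergothioneine carrier, 185, 196, 308 and 296. Slc13a1, the sulfate carrier of the proximal tubule, was higher in both its probe sets, with 1491, 1540, 2698 and 2376 in the main one.

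Lists that mark nephron segments had small medians. Proximal tubule markers had 4 of 32 higher and 8 lower (median -0.08, and 0.01 with quantile normalization), and loop and distal tubule markers 5 of 18 higher and 1 lower (median 0.06, but -0.03 at 24 months alone). Aqp1, the water channel of the proximal tubule and thin descending limb, had 4963, 5337, 2965 and 4578. Its second probe set differed less, at 8731, 8332, 7701 and 8138. In the collecting duct list the median was -0.17, but 0.11 at 24 months alone. The signs of this median and of the loop and distal tubule one thus rested on the 18-month array. Scnn1a, a subunit of the epithelial sodium channel, had 681, 610, 305 and 509.9, and Aqp4, a basolateral water channel, 152, 272, 422 and 323. Nphs1, nephrin of the podocyte, overlapped between the groups at 144, 130, 169 and 143.

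Genes of macrophages and dendritic cells had the largest list median, 0.21 (log2), with 0.18 at 24 months alone but 0.05 without the 4-month array. In both late arrays 9 of 22 were higher (40.9%, against 17.5% of all genes) and 4 lower (18.2%, against 22.5%). Besides Gpnmb, Ctss, a cathepsin of antigen-presenting cells, had 888, 934, 1612 and 1239, and Ptprc, the pan-leukocyte antigen CD45, 151, 242, 365 and 252. Cd68, a lysosomal protein of macrophages, had 284, 228, 313 and 359. Csf1r, the receptor these cells depend on, was lower late at 772, 760, 401 and 617, so the members did not all run one way. Cx3cr1, a chemokine receptor of resident macrophages, was also lower (331, 219, 74.0 and 186), as was its ligand Cx3cl1 (2124, 2055, 1080 and 1739). In the lymphocyte list Cd3g, a chain of the T cell receptor complex, had 203, 137, 298 and 311, and the killer cell protein Prf1 209, 159.9, 21.4 and 31.8. That list held 3 of 15 members higher and 3 lower, against 17.5% and 22.5% of all genes.

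Of 49 matrix genes tested, 13 were lower late (26.5%, near the 22.5% of all genes) and 5 higher (10.2%, against 17.5%). Their median was -0.12 (log2), with -0.11 at 24 months alone, but -0.03 without the 4-month array and -0.24 without the 10-month array. Col1a1, the main chain of fibrillar collagen, had 433, 276, 254 and 214, lower at each age, and its second probe set was lower by 0.20 with overlapping groups. Col3a1 overlapped between the groups at 1534, 683, 1107 and 863. Sparc, a matrix glycoprotein, had 2385, 1320, 768 and 1320, its late and early arrays touching, and Col6a2 had 367, 289, 193 and 218. Mmp14, a membrane-bound metalloproteinase, and Dcn, decorin, were higher late, at 150, 221, 468 and 282 and at 1787, 2309, 4037 and 2424. Complement genes had 3 of 16 higher and 3 lower, against 17.5% and 22.5% of all genes. C3, the central component, overlapped at 357, 306, 431 and 289. The class I gene RT1-CE10 varied widely, at 842, 304, 195 and 1562, with no order by age.

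**Figure D4:**
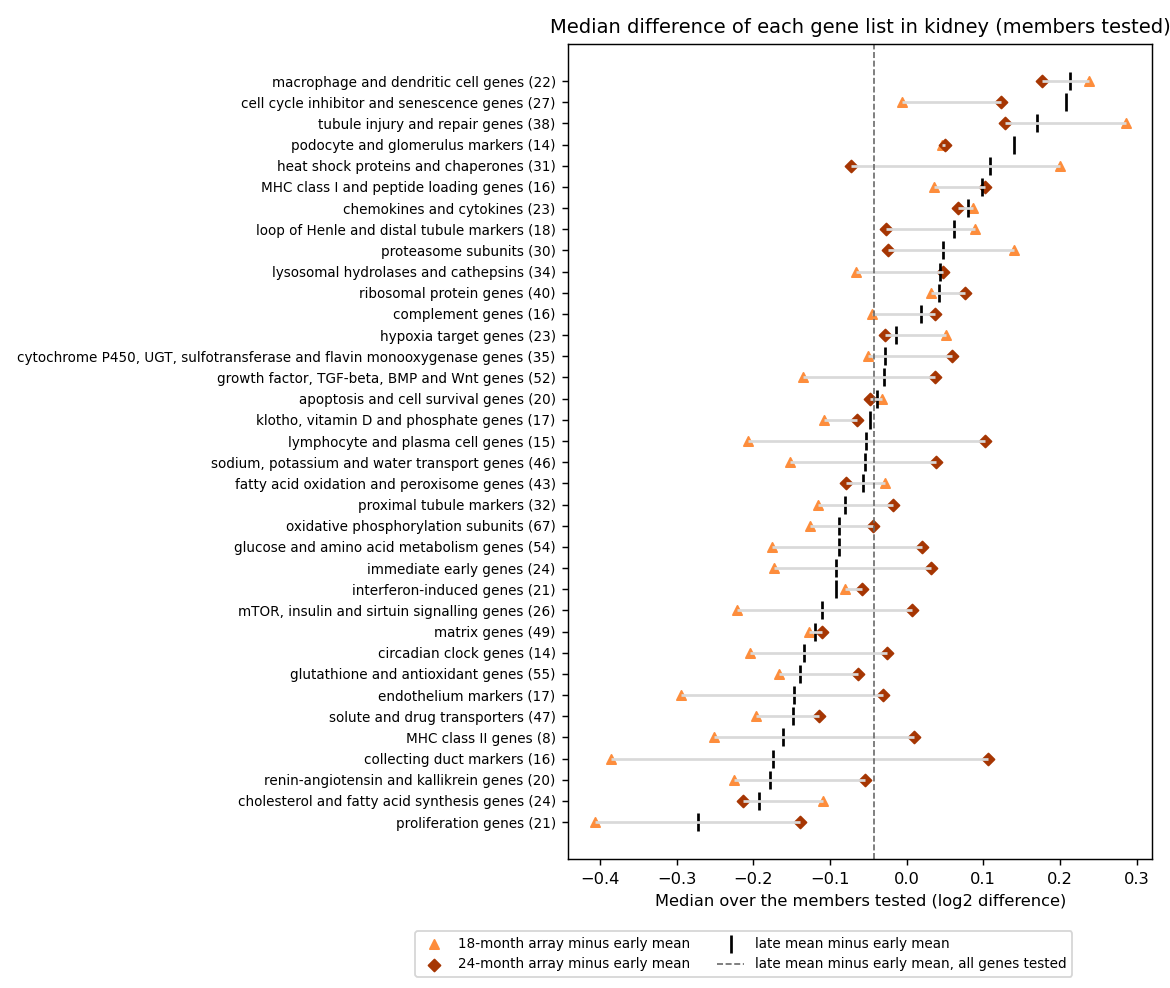
Median log2 difference from the early mean over the tested members (number in brackets) of 36 gene lists, for the 18-month array (triangles), the 24-month array (diamonds) and the mean of both (bars); the dashed line is the median of all genes, -0.04. The 18-month triangles are farther from 0 than the diamonds in most rows, and proliferation genes lie lowest and macrophage genes highest by the mean of both late arrays.

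The remaining lists showed medians between -0.18 and 0.14. Cyp2c11, a male-specific cytochrome P450, was the member of the drug metabolism list farthest from its early mean, at 3320, 1513, 1034 and 1184 (log2 difference -1.02, SE 0.36). In the renin-angiotensin list, 6 of 20 were lower and 3 higher, shares near the 22.5% and 17.5% of all genes, and angiotensinogen (Agt) had 407, 460, 309 and 274. In the clock list, Usp2, a deubiquitinase under clock control, had 576, 209, 179 and 123, with most of the difference between 4 and 10 months, as for Thrsp. Neither the labels nor the methods give the time of day at which tissues were taken, and its part in the values of clock genes was not tested. Hif1a, the hypoxia-inducible factor, had 1583, 1242, 2949 and 1859, highest at 18 months. Among signalling genes, Smad3, which carries the TGF-beta signal, was higher at 176, 224, 446 and 305, and Smad6, which inhibits BMP signals, lower at 218, 199, 97.9 and 158. Foxo1, a transcription factor restrained by insulin, was lower at 242, 214, 108 and 149. The second probe set of Smad3 differed by -0.02, with signals at or under the floor (104, 63.7, 14.9 and 102).

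Over the 4 ages, 157 genes were higher at each age than at the one before (1.86%) and 215 lower (2.54%). A slope with age tested by limma called 0 genes, with 225 at an unadjusted p under 0.05 (2.66%) and a smallest adjusted p of 0.998. Among the genes above, Cdkn1a, Rrm1, Clu and Lcn2 were higher at each step. Cdk1, Cdc20, Ccnb1, Kcnh2, Gstm1, Col1a1, Thrsp, Usp2 and Fam171a1 were lower at each step. In these probe sets the 24-month array lay beyond the 18-month one, unlike in most separated genes. The second probe sets of Cdc20 (228, 284, 121 and 195), Usp2 (545, 235, 157 and 212), Col1a1 (257, 29.5, 137 and 142) and Fam171a1 (1311, 1541, 1626 and 1611) did not follow this order.

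Whether the late-minus-early difference in kidney differed from the mean of the same difference in the other 5 tissues was tested for 7400 genes over all 24 arrays. Limma called 0 of them, with 707 at an unadjusted p under 0.05 (9.55%) and a smallest adjusted p of 0.18. Of the 30 genes with the widest gaps, 18 could be tested, and none passed. They were chosen by their kidney difference, which is part of this contrast. A wider difference in kidney than elsewhere was thus built in and is no further evidence. Syt13 came nearest, with -1.24 in kidney against -0.49 to 0.52 in the other tissues, a difference of -1.41 (log2, SE 0.27). Gosr1 had 1.28 in kidney and -0.96 to 0.24 elsewhere, with an SE of 0.32 for the difference. Srebf2 had -1.06 in kidney and -0.41 to 0.31 elsewhere. Ubd, in contrast, was also higher late in bone (1.28) and liver (0.88), and its difference from the mean of the other tissues was 0.50 (SE 0.56). Spp1 was 1.12 in kidney and -1.69 in bone, and Vim 0.85 in kidney and between -0.22 and 0.21 elsewhere. Every tissue of an age was taken from the same animals, so these arrays are not independent.

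**Figure D5:**
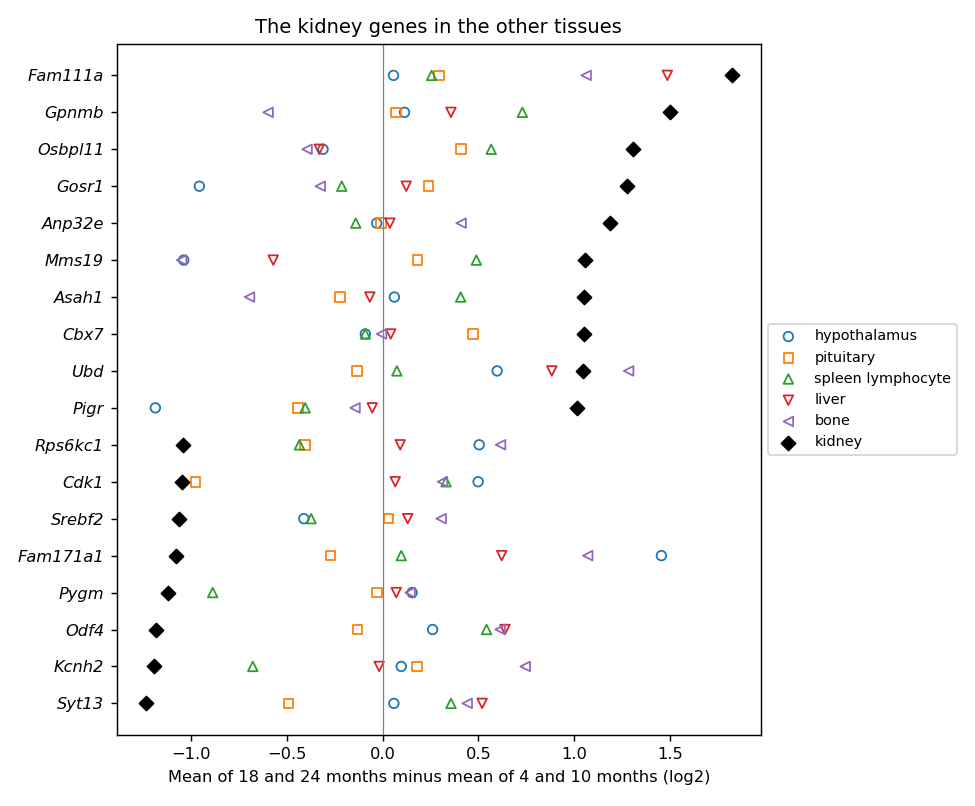
Late mean minus early mean (log2 of signals floored at 100) in kidney (black diamonds) and the other 5 tissues (open markers) for the 18 genes of the widest kidney gaps that could be tested across tissues. The kidney values lie beyond 1 on either side, because this chose the genes, and most open markers lie nearer to 0, with Ubd in bone and liver and Fam111a in liver and bone among the exceptions.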

How the data were processed

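Total RNA of 24 tissue pools was hybridised to 1 Affymetrix RAE230A array each, 4 of them kidney. The deposited values are MAS5.0 signal intensities, which the authors scaled to a trimmed mean of 500 per array. No source used here gives the version of MAS5.0. Of 15923 probe sets, 12783 carried 1 gene symbol, 312 several and 2771 none, with 57 controls left out. For genes with several probe sets, 1868 of 10411, the one past 100 on the most arrays was kept.

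Signals were floored at 100, log2-transformed and not normalized further. Genes past the floor on at least 2 kidney arrays were fitted with limma 3.58.1 in R 4.3.3 (late minus early, 2 residual degrees of freedom, and slope with age), with Benjamini-Hochberg adjustment at 0.05. The contrast with the other 5 tissues was fitted over 12 groups, for genes also past the floor on at least 18 of 24 arrays. SE values come from limma. P-values measure only the spread between pools of different ages, and the number of arrays limits the precision. The fits were tested on simulated data. The kidney arrays and the 36 gene lists and 10 marker lists were chosen with earlier results of these data known.

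Named genes were the 15 in each direction with the widest gap among separated genes beyond 2-fold with a gene name, up to 4 separated members per list, kidney identity genes and a fixed set of injury, matrix and immune genes. Only part of them are printed. Ccnb1, Ccnb2, Cdkn1c, Igfbp4, Idi1, Nsdhl, S100a4, Tff3, Pcna, Mki67, Cdkn2a, Csf1r, Cd68, Lep, Hbb, Myh1, Acta1, Mb and Myh4 lie outside this rule and were chosen after their values were seen. Alternatives were other floors, a pseudocount of 50, quantile normalization, centring on the median, other filters and probe set rules, other fold limits, an intensity trend, and leaving out each array.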

Additional observations from a re-analysis of the deposited data

How the results depend on the processing

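Limma called 0 genes for late minus early under every alternative but the 2 that leave out an early array, with 0 to 11 genes over the 4 leave-one-out fits, in which the array left alone in its group is assumed to vary like the others. The part of the 18-month array in the calls without an early array was not tested, since no fit left out both. Leaving out an array gave 18 to 132 separated genes beyond 2-fold higher and 27 to 293 lower, the extremes being the fits without the 18-month and without the 24-month array, and 692 to 1577 genes higher and 710 to 2127 lower at each step of the 3 ages left. The contrast with the other tissues called 0 to 3 genes, the 3 (Wfdc6a, Vax2 and Fkbp8) without the 24-month kidney array, and 1 (Syt13) with the floor at 50.

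With the floor at 50 the separated genes beyond 2-fold were 64 higher and 125 lower, and with the floor at 200 they were 8 and 6, with 137 genes lower at each of the 4 ages. Genes past 100 on all 4 arrays left 18 lower, centring on the median 25 and quantile normalization 23. A limit of 1.5-fold on the mean gave 230 and 384, and one of 1.5-fold between the nearest arrays 28 and 59. At 24 against 4 months alone, 39 genes were at least 2-fold higher and 36 lower with 100 on both arrays. The slope with age gave 0 calls throughout.

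Of 169 separated genes covered by the naming rule, 5 changed sign under an alternative, all with another choice of probe set: Cd55 (0.16), Fam171a1 (0.19), Masp1 (0.23) and Pth1r (-0.18) with the probe set brightest in kidney, and Clcn3 (-0.092) with the mean of all probe sets. Of the 36 list medians, 14 kept their sign under every alternative, and 12 had another sign without the 18-month array. With age as a random block, since the rats of an age supplied every tissue, the contrast with the other tissues called 0 genes, with 669 at an unadjusted p under 0.05. Within kidney no paired analysis was possible because early and late arrays hold different ages and the labels carry no replicate numbers.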
